A study of Drosophila melanogaster with 6 samples.

Results

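The muscle genes described here encode the thick filament, the thin filament and the giant elastic proteins of the sarcomere in the contractile sheath that wraps the Drosophila melanogaster ovary. There were 10 of them, chosen by name (Mhc, Mlc1, Mlc2, Prm, Act57B, Tm2, up, wupA, bt and sls), out of 17070 genes measured in both experiments. RNA immunoprecipitation followed by sequencing recovered RNA with anti-Lsd1 (2 libraries), anti-Bre1 (2 libraries) or control IgG (2 libraries) from ovaries of wild-type Oregon-R females collected no later than 12 hr post eclosion. Lsd1 is a histone demethylase and Bre1 an E3 ubiquitin ligase of histone H2B, and the IgG library of the same experiment was the reference for each antibody. In each of the 2 experiments ovaries of about 200 females gave 1 lysate, which was divided among the 3 antibodies, so the females were pooled and each antibody was sequenced in 1 library per lysate. All groups had the same strain, genotype and age and carried no transgene.

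Sarcomeres contract when heads of the myosin heavy chain on thick filaments pull on actin in thin filaments. Tropomyosin and the troponins on the thin filament let this happen when calcium rises, and giant titin-like proteins tie the filaments to the ends of the sarcomere. In the ovary these proteins are made in muscle cells around each ovariole and around the whole organ, whose contractions move eggs along. The lysates came from ovaries, so whether germline or follicle cells also held RNA of these genes was not tested.

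The deposited values were FPKM (fragments scaled by transcript length and library size) in experiment 1 and RPKM (reads scaled by exon length and library size) in experiment 2, 1 value per library. Germline, follicle cell and muscle sheath markers were detected, with 12 of 12, 9 of 10 and 7 of 7 reaching the level needed for testing. Of the 7 sheath markers 6 are themselves among the 10 genes, and Mef2 is the 1 that is not. Markers of flight muscle were close to absent: their summed level was between 0 and 0.833 over the 6 libraries, with fln listed at 0 in all of them. A pair of libraries stood apart from the rest. With Lsd1 in experiment 2, 1416 genes reached a value of 1, and with Bre1 in experiment 1, 2036 genes did, against 5485 to 6695 in the other libraries. These counts depend on the deposited scaling, and a value under 1 is not absence. With Lsd1 in experiment 2, sls had 268 reads at 0.0956 RPKM. Fragments or exon reads outside ribosomal RNA numbered 1578747 and 1565940 with Lsd1, 206740 and 7215287 with Bre1, and 1430704 and 8540255 with IgG, in experiments 1 and 2. The 10 genes took 0.296% and 0.833% of them with Lsd1, 0.356% and 0.346% with Bre1, and 0.382% and 0.204% with IgG. In experiment 2 the share with Lsd1 was therefore above that with IgG, and in experiment 1 below it, beyond the counting error (95% Clopper-Pearson interval 0.288 to 0.305 with Lsd1, against 0.372 to 0.392 with IgG, in experiment 1). These intervals cover counting error only.

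**Figure D1:**
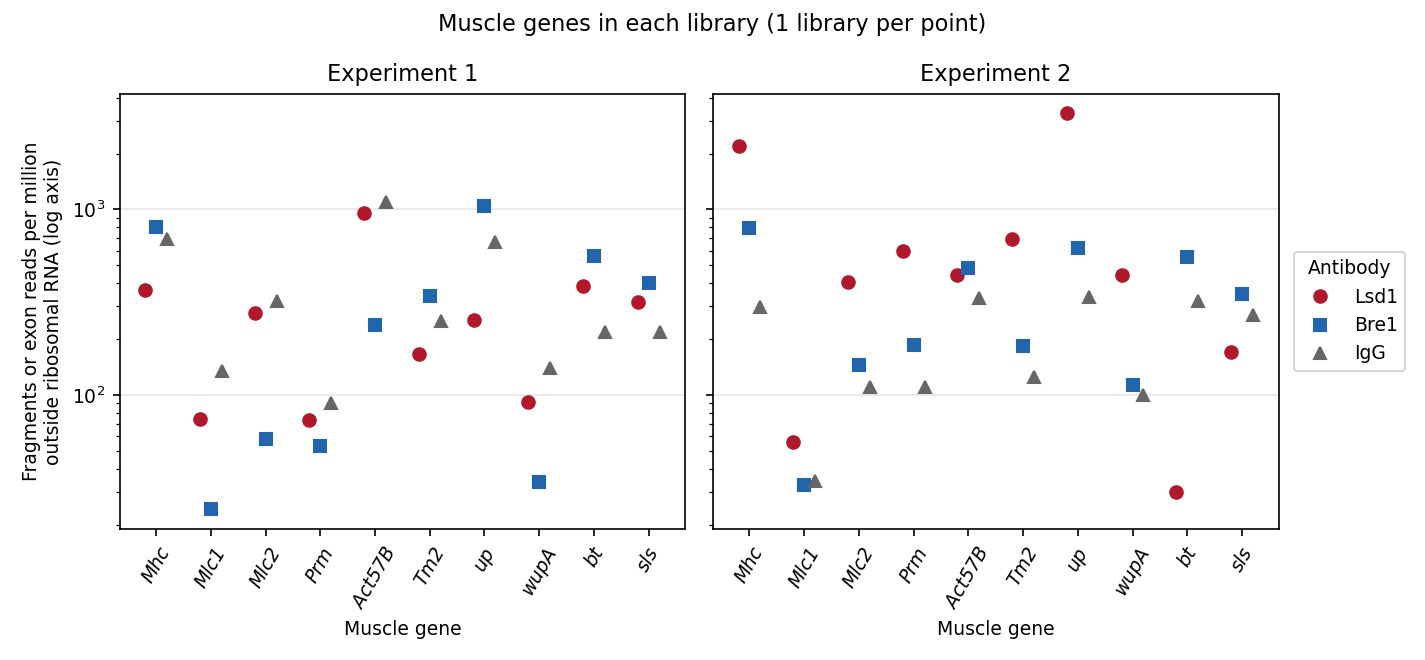
Fragments (experiment 1) or exon reads (experiment 2) of the 10 muscle genes, given per 1000000 outside ribosomal RNA on a log axis, with 1 point per library and no error bars because each antibody had 1 library per experiment. In experiment 2 the Lsd1 points of Mhc (2201) and up (3295) lie far above their IgG points (299 and 338), and that of bt (30.01) lies far below its IgG point (321).

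Among thick filament genes, Mhc encodes the myosin heavy chain (FBgn0264695, chromosome 2L, 16766566 to 16788766, plus strand, dm6). Its level was 6.94 FPKM and 8.004 RPKM with Lsd1, 2.87 FPKM and 8.48 RPKM with Bre1, and 10.6 FPKM and 5.82 RPKM with IgG. The Lsd1 value lay below the IgG value in experiment 1 and above it in experiment 2, so the groups overlapped. Mlc1, an alkali myosin light chain (FBgn0002772, chromosome 3R, 27657078 to 27660177, minus strand), had 13.0 FPKM and 1.29 RPKM with Lsd1, 0.796 FPKM and 2.24 RPKM with Bre1, and 19.1 FPKM and 4.26 RPKM with IgG. Its Bre1 value in experiment 1 rested on 5 fragments (exact Poisson 95% interval 1.62 to 11.7), against 193 with IgG. As deposited, IgG held the highest Mlc1 value in both experiments. Per 1000000 outside ribosomal RNA, IgG was also highest in experiment 1, with 135 fragments against 74.0 with Lsd1 and 24.1 with Bre1. In experiment 2 Lsd1 was highest on that scale, with 55.6 reads against 34.2 with IgG and 32.7 with Bre1.

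Mlc2, the regulatory myosin light chain of muscle (FBgn0002773, chromosome 3R, 30171438 to 30174551, minus strand), stood at 16.6 FPKM and 5.89 RPKM with Lsd1, 0.648 FPKM and 6.13 RPKM with Bre1, and 15.5 FPKM and 8.49 RPKM with IgG. The low library was again Bre1 in experiment 1, with 12 fragments (6.20 to 21.0) against 460 with IgG. Prm encodes paramyosin and miniparamyosin, which form the core of the thick filament (FBgn0003149, chromosome 3L, 8732858 to 8745310, minus strand). Prm had 2.92 FPKM and 3.65 RPKM with Lsd1, 0.407 FPKM and 3.36 RPKM with Bre1, and 2.84 FPKM and 3.63 RPKM with IgG. As deposited, its Lsd1 and IgG values were thus nearly equal in both experiments. Per 1000000 outside ribosomal RNA, Prm had 73.5 fragments with Lsd1 and 90.2 with IgG in experiment 1. In experiment 2 it had 594 reads with Lsd1 and 110 with IgG on that scale.

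Of the thin filament genes, Act57B encodes a muscle actin (FBgn0000044, chromosome 2R, 20944021 to 20946431, plus strand). It stood at 78.0 FPKM and 8.51 RPKM with Lsd1, 3.64 FPKM and 27.0 RPKM with Bre1, and 72.7 FPKM and 34.1 RPKM with IgG. In both experiments 1 antibody library was far below IgG as deposited, Bre1 in experiment 1 and Lsd1 in experiment 2. Per 1000000 outside ribosomal RNA, Bre1 was also below IgG in experiment 1, with 237 fragments against 1094. On that scale Lsd1 was above IgG in experiment 2, with 445 reads against 334. Tm2 encodes a muscle tropomyosin, which covers myosin binding sites on actin at rest (FBgn0004117, chromosome 3R, 15310193 to 15315197, plus strand). Tm2 had 20.1 FPKM and 8.68 RPKM with Lsd1, 8.63 FPKM and 6.76 RPKM with Bre1, and 24.5 FPKM and 8.38 RPKM with IgG.

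The troponin genes lie on chromosome X. The gene up encodes troponin T, which anchors the troponin complex to tropomyosin (FBgn0004169, 13593474 to 13602578, minus strand), and wupA encodes troponin I, which blocks contraction until calcium binds (FBgn0283471, 18105568 to 18116922, minus strand). Levels of up were 24.1 FPKM and 42.9 RPKM with Lsd1, 19.2 FPKM and 23.7 RPKM with Bre1, and 50.4 FPKM and 23.5 RPKM with IgG. Levels of wupA were 12.1 FPKM and 7.38 RPKM with Lsd1, 0.866 FPKM and 5.52 RPKM with Bre1, and 15.0 FPKM and 8.91 RPKM with IgG. The Bre1 library of experiment 1 separated these partners most, since it held 216 fragments of up but 7 of wupA (2.81 to 14.4).

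Both giant proteins are titin-like: bt encodes projectin (FBgn0005666, chromosome 4, 724400 to 776474, plus strand) and sls encodes Sallimus and its short form kettin (FBgn0086906, chromosome 3L, 2039681 to 2115611, minus strand). The level of bt was 1.77 FPKM and 0.0353 RPKM with Lsd1, 0.487 FPKM and 1.91 RPKM with Bre1, and 0.805 FPKM and 2.02 RPKM with IgG. In reads of experiment 2 this was 47 with Lsd1 (34.5 to 62.5), 4004 with Bre1 and 2740 with IgG. The sls level was 1.37 FPKM and 0.0956 RPKM with Lsd1, 0.332 FPKM and 0.570 RPKM with Bre1, and 0.614 FPKM and 0.804 RPKM with IgG. In these genes the order of Lsd1 and IgG was the reverse of that in Mhc and up: Lsd1 was the higher in experiment 1 and the lower in experiment 2. The RPKM of experiment 2 divides by the bases of all exons of a gene, which in 7 of the 10 genes exceed its longest transcript, so levels are per length on a different footing in the experiments.

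Per kilobase within a library, Act57B was the most abundant of the 10 in 4 libraries and up in the other 2, Bre1 of experiment 1 and Lsd1 of experiment 2. The lowest was sls in 5 libraries and bt with Lsd1 in experiment 2. The proportions between partner genes varied from library to library. The ratio of up to wupA was 1.99 and 5.81 with Lsd1, 22.2 and 4.30 with Bre1, and 3.36 and 2.64 with IgG in experiments 1 and 2. The ratio of Act57B to Mhc was 11.2 and 1.06 with Lsd1, 1.27 and 3.18 with Bre1, and 6.84 and 5.86 with IgG. The ratio of bt to Mhc was 0.256 and 0.00441 with Lsd1, 0.170 and 0.226 with Bre1, and 0.0757 and 0.347 with IgG. These ratios need no scaling between libraries, and they have no test because each library gives 1 value. Within an experiment the antibodies shared a lysate. Between the experiments, the number of muscle cells, the RNA per cell and the quantification cannot be told apart.

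The first comparison asked whether anti-Lsd1 recovered more of these RNAs than IgG. No member differed between Lsd1 and IgG by the test, and none had a ratio of the same sign in both experiments. In experiment 1, 8 of the 10 genes lay below IgG and in experiment 2, 8 lay above it. Ratios were taken as log2 of (scaled value + 1) within an experiment, after each library had been divided by a size factor (0.370 for Lsd1 and 1.98 for IgG in experiment 2), and fold changes of low genes are understated on this scale. The highest ratio of experiment 2 belonged to up, with 3.18, against -1.32 in experiment 1. Its fitted change was 0.93 ± 0.98 (SE, n = 2 experiments) with a limma Benjamini-Hochberg adjusted p of 0.962. Troponin T thus had the lowest ratio of the set in one experiment and the highest in the other.

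The remaining genes showed the same turn between experiments. Mhc had ratios of -0.79 and 2.52, which the fit put at 0.87 ± 0.79 (SE, limma adjusted p = 0.962). Tm2 had -0.57 and 2.22, Prm -0.18 and 1.94, wupA -0.57 and 1.93, and Mlc2 -0.21 and 1.68. The turn was smaller for the light chain Mlc1, with -0.80 and 0.51, and for the actin Act57B, with -0.22 and 0.39. The giant genes turned the other way, with 0.34 and -0.88 for bt and 0.30 and -0.16 for sls, which was not tested because 1 library alone reached the minimum value of 1. A same sign in both experiments was thus seen in 0 of 10 members, against 41.2% of the 6687 tested genes. Ratios above 0 were seen in 2 of 10 in experiment 1 and 8 of 10 in experiment 2, against 54.6% and 15.7% of tested genes.

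With the experiment as a block, 0 of 9 tested members passed in limma in either direction, against 0.0299% of tested genes, and 0 had an unadjusted p under 0.05 (lowest 0.223). The adjusted p of the members lay between 0.962 and 0.994, and neither edgeR nor DESeq2 on counts called any of them. The unadjusted DESeq2 p was under 0.05 for up (0.0225), Tm2 (0.0411) and Mhc (0.0484), as for 111 of 8059 genes. Their DESeq2 adjusted p was 0.990. With upper quartile scaling the unadjusted limma p of Prm was 0.0445 (adjusted p = 0.965), and 123 of 6687 genes were under 0.05. No member's Lsd1 libraries lay wholly above or wholly below its IgG libraries, against 2.15% of tested genes higher and 16.1% lower. The median ratio of the 10 members was -0.39 in experiment 1 and 1.80 in experiment 2, beside 0.03 and -0.84 for all tested genes. Against the median of all tested genes, 2 of the 10 lay higher in experiment 1 and 9 in experiment 2, bt being the exception. The count was 2 or 3 in experiment 1 and 9 or 10 in experiment 2 under the other scalings and pseudocounts. The sign itself depended on scaling: in the values as deposited, where the median of all tested genes was -2.02 in experiment 2, 4 of the 10 ratios were above 0 (Mhc, Prm, Tm2 and up), and in experiment 1 they were 5. Leaving out the Lsd1 library of experiment 1, Mhc (2.29, adjusted p = 0.0374), Prm (1.72, adjusted p = 0.0407) and up (3.16, adjusted p = 0.0369) passed in limma as higher, as did 1.05% of tested genes. In that fit the lone Lsd1 library was assumed to vary like the other groups. The p-values rest on the spread between libraries of 2 lysates, which may be technical, and limma took most of each gene's spread from genes of like abundance.

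**Figure D2:**
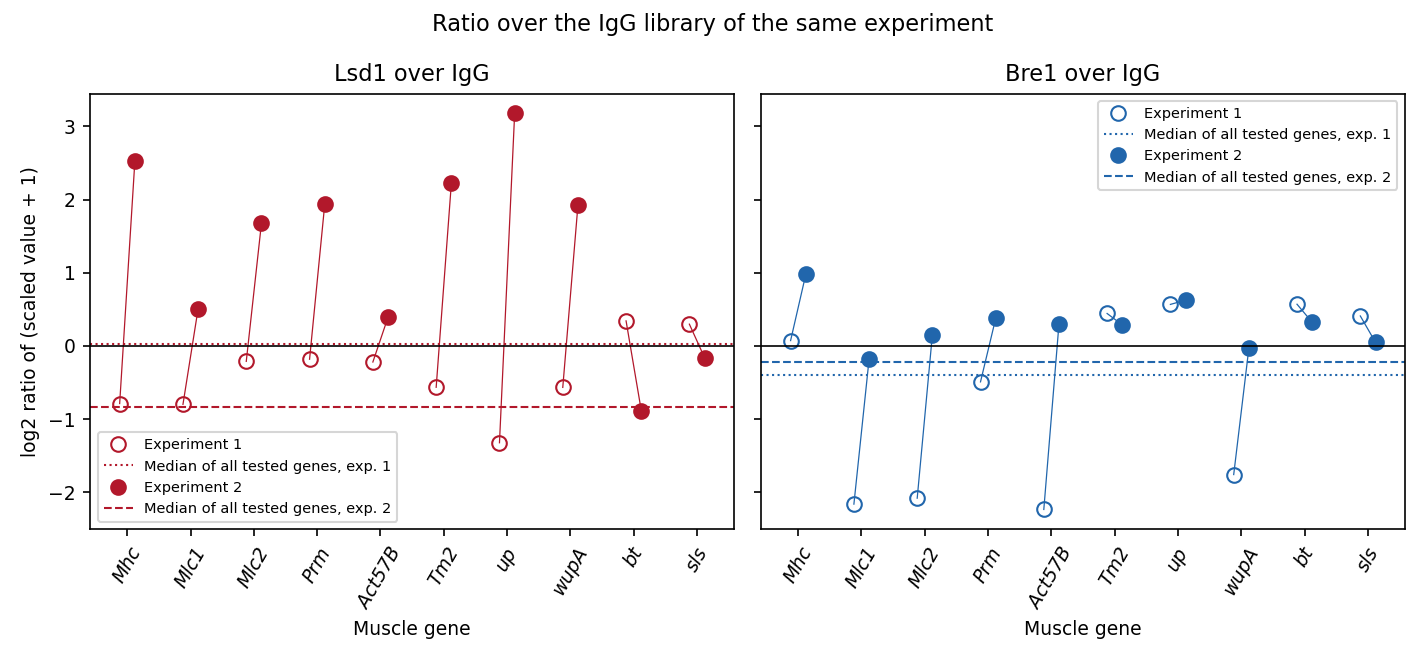
Log2 ratio of each muscle gene over the IgG library of the same experiment, for Lsd1 (left) and Bre1 (right), with open circles for experiment 1, filled circles for experiment 2, a thin line joining the experiments, and dotted and dashed lines at the median of all 6687 tested genes in experiments 1 and 2. With Lsd1 every line crosses 0; with Bre1 the open circles of Mlc1, Mlc2, Act57B and wupA lie at or below -1.76 and the other open circles lie at or above -0.49.

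Other marker lists moved in experiment 2 as well. The yolk protein genes Yp1, Yp2 and Yp3, made in fat body and in follicle cells, were the 3 of 8 fat body markers that were tested, and their median ratio was -0.20 in experiment 1 and 1.65 in experiment 2. The summed level of the 8 fat body markers was 525 FPKM and 131 RPKM with Lsd1, 52.4 FPKM and 198 RPKM with Bre1, and 479 FPKM and 198 RPKM with IgG, and the larval genes Lsp1alpha and Fbp1 were under 0.1 in all libraries. The 12 germline markers had a median Lsd1 ratio of 0.32 in experiment 1 and -2.20 in experiment 2. The part of these cell types in the muscle gene ratios was not tested.

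The second comparison set anti-Bre1 against IgG, with the same IgG libraries as the first. No member differed by the test here either. Ratios were above 0 in both experiments for 5 genes (Mhc, Tm2, up, bt and sls), and 4 others (Mlc1, Mlc2, Act57B and wupA) lay far below IgG in experiment 1 and near it in experiment 2. The troponin T gene up had the most even ratios of that set, 0.57 and 0.62, put at 0.60 ± 0.98 (SE) by the fit (limma adjusted p = 1.00). The ratios of bt were 0.57 and 0.32, those of Tm2 0.44 and 0.29, those of sls 0.41 and 0.05, and those of Mhc 0.07 and 0.98.

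Below IgG in experiment 1 were Act57B, with -2.24 and 0.30, Mlc1 with -2.16 and -0.18, Mlc2 with -2.08 and 0.15, and wupA with -1.76 and -0.03. Of these Mlc1 had the lowest fit, -1.17 ± 0.74 (SE, limma adjusted p = 1.00). Prm had -0.49 and 0.38. The actin, both light chains and troponin I thus shared a low value in the Bre1 library of experiment 1, where they had 49, 5, 12 and 7 fragments (Act57B, Mlc1, Mlc2 and wupA), and had ratios between -0.18 and 0.30 in experiment 2.

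In limma 0 of 9 tested members passed for Bre1 over IgG, again against 0.0299% of tested genes, and 0 had an unadjusted p under 0.05 (lowest 0.115). Both edgeR and DESeq2 on counts called 0 members. Ratios had the same sign in both experiments in 7 of 10 members, against 62.4% of tested genes. They were above 0 in 5 of 10 in experiment 1 and 8 of 10 in experiment 2, against 30.4% and 25.4% of tested genes. Both Bre1 libraries lay above both IgG libraries for bt and sls (4.74% of tested genes) and below them for Mlc1 and wupA (30.8% of tested genes). The closest scaled values with Bre1 and IgG were 1.29 and 1.02 for bt, and 0.455 and 0.416 for sls, which was not tested. For Mlc1 they were 2.11 and 2.16, and for wupA 4.4 and 4.51. The median ratio of the 10 was -0.21 and 0.29, beside -0.40 and -0.22 for all tested genes. In experiment 2 each of the 10 lay above the median of all tested genes, also under the other scalings and pseudocounts, whereas in experiment 1 this was so for 5 genes, or 2 in the values as deposited. In those values 0 of 10 ratios were above 0 in experiment 1 and 2 in experiment 2, so the excess over IgG is one after scaling.

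Exon length differed widely among these genes, from the light chains to the titin-like proteins. It was 1414 bases for Mlc1, 1724 for Act57B, 1978 for wupA, 2286 for Mlc2, 2530 for up, 2613 for Tm2, 5356 for Prm, 9058 for Mhc, 28019 for bt and 58996 for sls. Across the 10 genes the Spearman correlation of length with the Bre1 ratio was 0.75 in experiment 1 and 0.44 in experiment 2, beside 0.52 and 0.17 across 6496 tested protein-coding genes. With Lsd1 it was 0.56 and -0.08 across the 10, beside 0.42 and -0.00. Genes are not independent replicates, and these values describe 1 library pair each.

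The ratios were also set beside those of protein-coding genes of like length. Between 1400 and 2700 bases, the 6 short members had a median Bre1 ratio of -1.92 in experiment 1, beside -0.53 for 2200 other genes, and of 0.22 in experiment 2, beside -0.20. Their median Lsd1 ratio was -0.57 in experiment 1, beside -0.00, and 1.80 in experiment 2, beside -0.84. Between 5000 and 10000 bases, Prm and Mhc had a median Lsd1 ratio of -0.49 in experiment 1, beside 0.23 for 773 other genes, and 2.23 in experiment 2, beside -0.88. Over 20000 bases, bt and sls had median Lsd1 ratios of 0.32 and -0.52, beside 0.44 and -0.44 for 12 other genes. Their median Bre1 ratios were 0.49 and 0.18, beside 1.00 and -0.03. Among those 12 were Msp300, a giant muscle nesprin, with Lsd1 ratios of 0.63 and -0.10, and trol, perlecan of the basement membrane, with 0.73 and -0.09. Over the 12, Lsd1 ratios of experiment 2 ran from -1.76 (mei-P26) to 0.43 (CG34417). In the Lsd1 library of experiment 2 the short and medium members thus had medians above those of genes of their length, and bt and sls together had one just below.

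**Figure D3:**
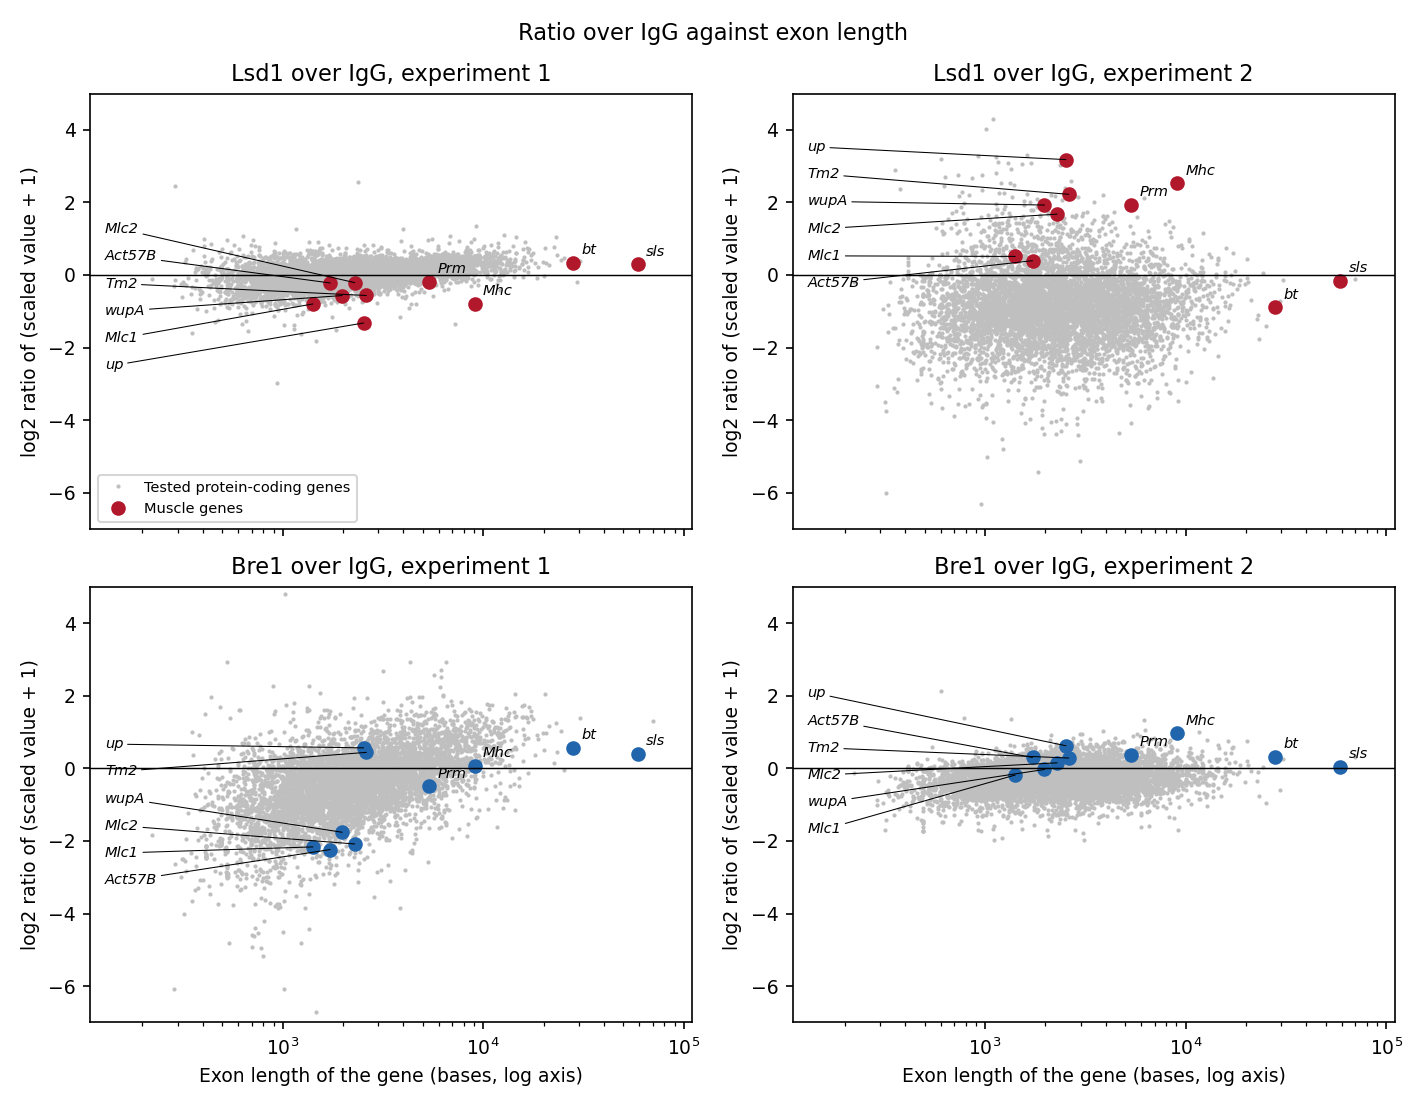
Log2 ratio over IgG against the exon length of the gene (bases, log axis) for tested protein-coding genes (grey) and the 10 muscle genes (coloured and named), for Lsd1 (top) and Bre1 (bottom) in experiment 1 (left) and experiment 2 (right). The 8 genes under 10000 bases lie in the upper part of the grey cloud with Lsd1 in experiment 2. There bt and sls lie within its height, on a scale that understates falls of low genes.

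In experiment 2 the tables also gave reads that span an exon junction, which come from spliced RNA. Their share of exon reads in up was 20.4% with Lsd1 (95% Clopper-Pearson interval 19.4 to 21.6), 40.8% with Bre1 (39.4 to 42.3) and 45.6% with IgG (43.7 to 47.4). In Mhc it was 7.84% with Lsd1 (6.96 to 8.78), 27.6% with Bre1 (26.5 to 28.8) and 25.8% with IgG (24.1 to 27.5). In wupA it went the other way, with 92.8% with Lsd1 (90.6 to 94.6), 64.0% with Bre1 (60.6 to 67.3) and 68.1% with IgG (64.9 to 71.3). The 2 genes with the highest Lsd1 ratios of experiment 2 therefore had a lower share of junction reads with Lsd1 than with IgG, and wupA had a higher share.

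In the filament genes Tm2 and Prm this share was close to that with IgG, and in Mlc1 it was lower with Lsd1. Tm2 had 19.2% with Lsd1, 20.7% with Bre1 and 20.1% with IgG, and Prm had 17.6%, 17.1% and 17.8% in the same order. Mlc2 had 19.7% with Lsd1 and 16.3% with IgG, and Act57B had 7.89% with Lsd1 and 6.25% with IgG. In bt it was 23.4% with Lsd1 on 47 reads (12.3 to 38.03) and 13.6% with IgG. Mlc1 had 29.9% with Lsd1 on 87 reads (20.5 to 40.6) and 146 junction reads of 292 with IgG (44.1 to 55.9). Among 8 members with at least 100 exon reads in each library, up and wupA differed from IgG by more than 20 percentage points with Lsd1, as did 7.58% of 1689 other protein-coding genes, and 0 members and 0% of the other genes did with Bre1. The median share over all 1697 such genes was 5.85% with Lsd1, 12.3% with Bre1 and 12.7% with IgG. Where along the genes the reads lay is not given in the tables used here.

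**Figure D4:**
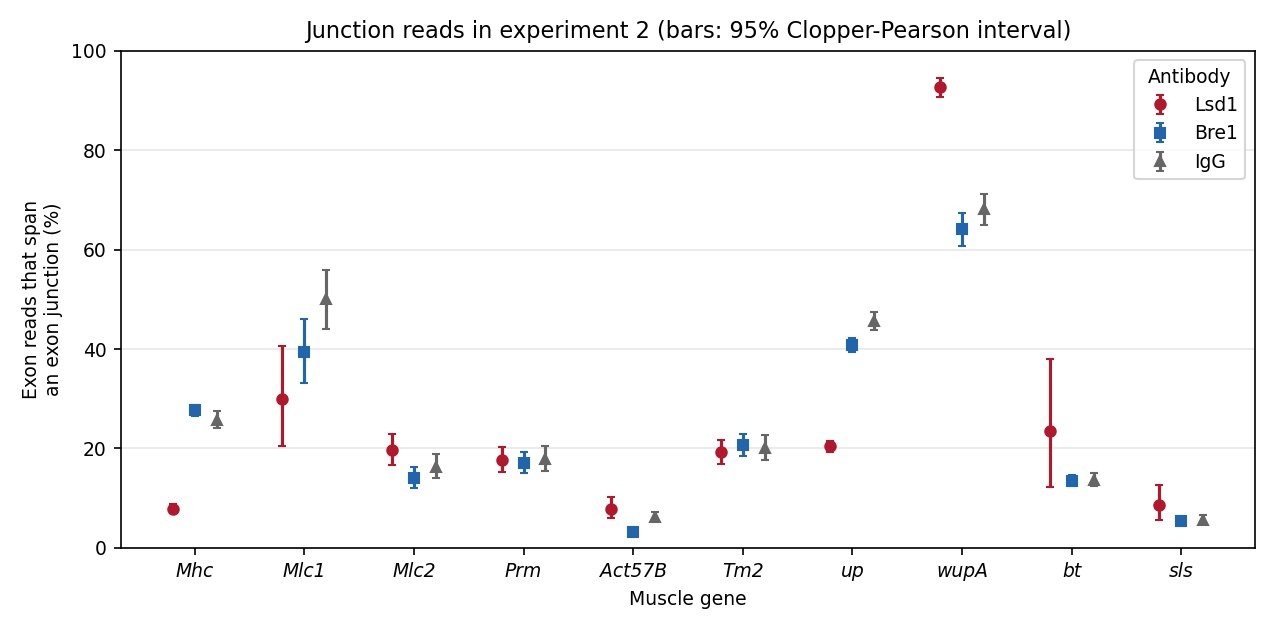
Share of exon reads that span an exon junction in experiment 2 (percent), for Lsd1 (circles), Bre1 (squares) and IgG (triangles), with 95% Clopper-Pearson intervals that cover counting error only. The Lsd1 point lies below both others in Mhc and up, at 7.84% and 20.4%, and above both in wupA, at 92.8%.

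Intron reads were few in 8 of the members, at most 5.95% of gene reads (wupA with IgG), and at least 99.7% of exon reads were uniquely mapped in every member. With Lsd1 none was detected in Mhc, with 0 of 3446 gene reads (interval up to 0.107%), or in up, with 0 of 5160 (up to 0.0715%), against 46 of 2599 in Mhc and 32 of 2918 in up with IgG. In the giant gene sls, introns held 62.3% of the gene reads with Lsd1 (442 of 710), against 3.76% with Bre1 (98 of 2609) and 3.04% with IgG (72 of 2370). None of the 442 Lsd1 reads was uniquely mapped.

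In experiment 1 Cufflinks divided the fragments of each gene among its annotated transcripts, and the division differed between antibodies in several members. Tm2 was assigned mainly to FBtr0083078 with Lsd1 (95.6% of its FPKM), almost wholly to FBtr0345212 with Bre1 (71 fragments), and mainly to FBtr0083078 with IgG (68.9%). For Mhc, FBtr0080903 led with Lsd1 (46.3%), FBtr0307495 with Bre1 (64.0%) and FBtr0080903 with IgG (43.1%). The leading transcript of up was FBtr0073851 in all 3 libraries, with 64.8% with Lsd1, 45.3% with Bre1 and 66.6% with IgG. With Bre1 a further 44.6% of up went to FBtr0345131, whose estimates carry the program's mark for low data.

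Mlc1 was led by FBtr0085196 in each library, with 89.3% with Lsd1, nearly all with Bre1 (5 fragments) and 99.2% with IgG, and these estimates carry the mark for low data too. For wupA, FBtr0074520 held 88.1% with Lsd1, the 7 Bre1 fragments were shared between FBtr0074525 and FBtr0074526, and FBtr0074520 held 90.8% with IgG. For bt, FBtr0089793 held 61.3% with Lsd1, where FBtr0301340 held 38.7%, and nearly all with Bre1. With IgG FBtr0301340 led at 45.2%. For sls, FBtr0072848 led with Lsd1 (54.9%) and Bre1 (63.6%), and FBtr0332680 led with IgG at 33.9%. Both giant genes were thus divided among transcripts with Lsd1 and with IgG, and sls was also divided with Bre1. With 1 library per antibody these shares have no replicate check, and transcripts of Mhc and up overlap over most of their length. In Tm2, FBtr0345212 lies within the span of FBtr0083078 and ends at the same base.

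**Figure D5:**
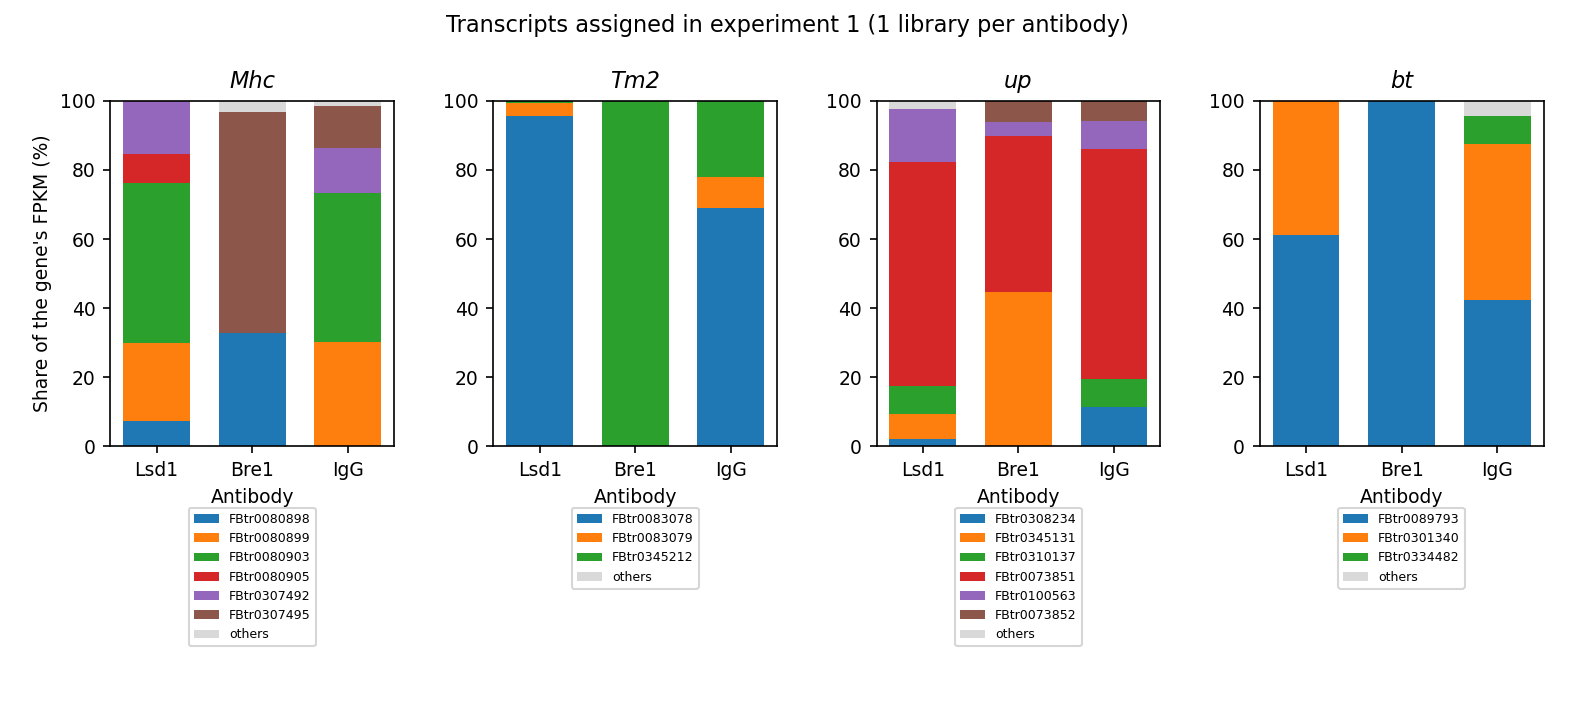
Share of the summed FPKM of Mhc, Tm2, up and bt that was assigned to each annotated transcript in experiment 1 (percent), for Lsd1, Bre1 and IgG, with 1 library per bar and transcripts of 5% or less in every library drawn together in grey. The Bre1 bar of Tm2, which rests on 71 fragments, is almost wholly a single transcript that is not the leading one with Lsd1 or IgG.

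Further muscle genes were read beside the 10. Of 23 other muscle structural genes 12 were tested, and 0 passed in either direction with Lsd1 or with Bre1 in limma. Their median Lsd1 ratio was -0.02 in experiment 1 and -0.06 in experiment 2, so they stood between the 10 genes (1.80) and all tested genes (-0.84) in experiment 2. The highest fitted change with Lsd1 was that of Actn, the alpha-actinin of the Z disc, at 0.70, and the lowest that of Mp20, a calponin-like protein, at -0.58 (limma adjusted p = 0.962 for both). With Bre1 their median was -1.36 and -0.16, Actn was again highest at 0.71, and Mlp60A, a muscle LIM protein, was lowest at -1.91. In experiment 1 Mlp60A was listed at 0 with Bre1, against 15.8 FPKM with IgG.

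Genes for calcium handling (4 of 7 tested), muscle regulators (2 of 8 tested), integrin attachment (8 of 9 tested) and non-muscle actin and myosin (10 of 10 tested) likewise had 0 calls in limma in both comparisons. Among calcium genes the Lsd1 medians were 0.23 and -1.29, and SERCA, the pump that returns calcium to the sarcoplasmic reticulum, had 0.01 and -0.24. Of the regulators, Mef2, the transcription factor of muscle differentiation, had Lsd1 ratios of 0.42 and -0.32, and nau, twi, bap and ara were listed at 0 in all libraries. Integrin attachment genes had Lsd1 medians of 0.11 and -1.23, from stck at a fitted -0.98 to Vinc, vinculin, at 0.28. Non-muscle actin and myosin genes had Lsd1 medians of -0.03 and 0.12, from tsr, cofilin, at a fitted -2.03 to Mlc-c, a cytoplasmic myosin light chain, at 0.27. Outside the set of 10, Lsd1 ratios of experiment 2 were 1.35 for Actn, 0.82 for Tm1, a further tropomyosin, 0.65 for Act87E, a further actin, and 0.60 for Mlc-c, above those of the members Mlc1 and Act57B. These 4 were picked as high after their values were seen, and other genes of their lists went the other way. Mp20 had -1.01, Zasp66 -0.93 and tmod -0.68 among the structural genes. Among the non-muscle genes tsr had -3.56 and chic -1.69. The difference between the lists was not tested.

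The members did not share one profile over the 6 libraries. The Pearson correlation of a member's log2 scaled values with the mean of the other 9 was 0.85 for wupA, 0.75 for Mlc2, 0.72 for Mhc, 0.62 for Prm, 0.59 for Tm2, 0.59 for up, 0.40 for Mlc1 and 0.34 for Act57B. It was -0.51 for sls and -0.91 for bt. The 5 other tested genes whose values over the 6 libraries correlated most with the mean of the members were Taldo, transaldolase of the pentose phosphate pathway (0.98), RpL23A (0.97), RpL34b (0.96), eIF3g1 (0.96) and RpL6 (0.95), of which all but Taldo encode ribosomal proteins or a translation initiation factor. These libraries share experiment, depth and scaling, so the correlations describe them and carry no p.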

How the data were processed

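RNA recovered from ovary lysate with anti-Lsd1, anti-Bre1 or IgG was sequenced in 2 experiments. Per the labels, libraries used a TruSeq kit (version 2) without polyA selection; this kit does not mark strand. Cufflinks, TopHat, SAMtools 0.1.18.0 and Bowtie2 2.0.6.0 were used, with the genome build dm6, per the submitters' processing notes. For experiment 1 the authors deposited transcript FPKM with confidence limits and a coverage signal (not used), per the file headers. Experiment 2 came as deposited gene tables with RPKM, TPM (not used) and read counts, made by a program that the sources used here do not name. Experiment and quantification therefore cannot be told apart.

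FPKM was summed per gene, and fragments were recovered or modelled from the limits. Of 17101 genes joined (17021 by identifier, 80 by symbol, among them wupA), 31 without an estimate were left out. Coordinates of the 10 members equalled those of the RefSeq gene table. Libraries were scaled by median ratio over 1028 genes. Genes of at least 1 in at least 2 libraries (6687) were fitted on log2(scaled value + 1) with limma 3.58.1 in R 4.3.3 (lmFit and eBayes, trended prior), using terms for antibody and experiment. A call needed a Benjamini-Hochberg adjusted p under 0.05. Each lysate was divided among the antibodies, hence the block for experiment; deviations from antibody means correlated at 0.47 (Lsd1 with IgG), 0.51 (Bre1 with IgG) and 0.11 (Lsd1 with Bre1), which shared quantification can also give. Counts were tested with edgeR 4.0.16 and DESeq2 1.42.0 as alternatives. The code of the fit was tried on simulated counts whose spread was set and not taken from these libraries. That trial checks the code, and not the power or error rate of the fit at the spread seen here. Members, lists and the rule for named genes (all members, each list's highest and lowest gene, the 5 genes of most like profile) were chosen with earlier results of these data known. Some genes, among them Tm1, Act87E, Msp300 and trol, were named outside this rule.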

Additional observations from a re-analysis of the deposited data

Results flagged for a closer look

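The share of gene reads that lay in introns of the giant genes, outside the measurements compared between antibodies, stood above that of IgG in the Lsd1 library of experiment 2. In sls, introns held 62.3% of gene reads with Lsd1 (442 of 710, 95% Clopper-Pearson interval 58.6 to 65.8), against 3.04% with IgG (72 of 2370, 2.38 to 3.81), and 0 of the 442 Lsd1 reads and 3 of the 72 IgG reads were uniquely mapped. In bt, introns held 9.62% of gene reads with Lsd1 (5 of 52, 3.20 to 21.0), against 1.23% with IgG (34 of 2774, 0.8503 to 1.71), and 4 of the 5 and 32 of the 34 were uniquely mapped. The higher share of bt stood beside fewer exon reads, 47 with Lsd1 against 2740 with IgG, and not beside more intron reads.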

How the results depend on the processing

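Genes called by limma for Lsd1 over IgG numbered 2, and 15 with a pseudocount of 5 and 11 with DESeq2 on counts; for Bre1 over IgG they numbered 2, and 1 with a pseudocount of 5, 5 with a minimum value of 5 and 0 with DESeq2. In limma they were 0 for Lsd1 and 0 for Bre1 with a pseudocount of 0.1 (30 and 43 genes with an unadjusted p under 0.05), without a filter (176 and 120), in the values as deposited (14 and 9), with quantile normalization (86 and 121), with upper quartile scaling (123 and 138) and without the mean-variance trend (109 and 156), and 0 in edgeR on counts (41 and 34). With no replicate block, so without the pairing by lysate, limma called 0 and 0 genes (37 and 63); no member's call depended on the block. Leaving out each library in turn gave 0 to 1805 calls for Lsd1 (1805 without Lsd1 replicate 1, 9 without Lsd1 replicate 2, 5 without Bre1 replicate 2, 0 without IgG replicate 1) and 0 to 44 for Bre1 (44 without Bre1 replicate 2, 43 without Lsd1 replicate 2, 4 without IgG replicate 2, 0 without IgG replicate 1, Lsd1 replicate 1 or Bre1 replicate 1). When a library of a pair was left out, the members' median was that of the ratios of the other experiment alone, not of a fit. It was -0.39 or 1.80 with Lsd1 and -0.21 or 0.29 with Bre1. As deposited it was -0.15 with Lsd1 and -0.80 with Bre1, against 0.71 and 0.085 over both experiments after scaling, and with upper quartile scaling it was 1.44 with Lsd1. Fitted Lsd1 changes turned negative as deposited for Mhc (-0.074), Mlc2 (-0.19), Act57B (-0.89), Tm2 (-0.11), up (-0.10) and wupA (-0.27). That of Mlc1 turned positive with quantile normalization (0.29), upper quartile scaling (0.48), edgeR (0.35) and DESeq2 (0.41), and that of bt with quantile normalization (0.13). Fitted Bre1 changes turned negative as deposited for Mhc (-0.56), Tm2 (-0.84), up (-0.67) and bt (-0.17), and that of Prm turned positive with quantile normalization (0.26) and upper quartile scaling (0.22). When a library was left out, Lsd1 changes ran from -0.70 to 0.87 for Act57B, -0.56 to 2.29 for Mhc, -0.97 to 0.68 for Mlc1, -0.30 to 1.76 for Mlc2, -0.61 to 2.26 for Tm2, -0.82 to 0.28 for bt, -1.31 to 3.16 for up and -0.38 to 1.74 for wupA. Bre1 changes ran from -2.08 to 0.15 for Act57B, -0.53 to 1.58 for Mhc, -1.99 to 0.067 for Mlc2, -0.81 to 0.69 for Prm, -0.41 to 1.14 for Tm2, -0.54 to 1.74 for up and -1.95 to 0.16 for wupA. The cause of these changes was not tested. The other sheets of experiment 1 repeated the same FPKM values, so they were no check on the transcript shares. Unique reads changed no member's junction share beyond its counting error, and nearly all exon reads of the members were unique. Depth limited Mlc1, Mlc2, Prm and wupA in the Bre1 library of experiment 1, at 5 to 12 fragments.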

Other observations

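Markers of other cells of the ovary and its surroundings were counted in the same fits, and 0 genes of any of these lists passed in limma for either antibody over IgG. Follicle cell markers (9 of 10 tested) had median Lsd1 ratios of 0.07 in both experiments and median Bre1 ratios of 0.66 and -0.07, from Fas3, a septate junction protein, at a fitted Bre1 change of -0.19 to Egfr, the epidermal growth factor receptor, at 0.58. Germline markers had median Bre1 ratios of -0.59 and -0.44, from osk, whose RNA marks the posterior pole of the oocyte, at a fitted -2.05 to vas, a germline RNA helicase, at 0.45. With Lsd1 osk was lowest of the germline list at -2.34 and grk, the ligand that sets up the dorsal side, highest at 0.32.

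Of hemocyte markers 2 of 7 were tested, with Lsd1 medians of 0.02 and -1.08. The 1 tested tracheal marker of 6, Gasp, a chitin-binding protein, had Lsd1 ratios of 0.06 and 0.66. Gut markers (5 of 8 tested) had Lsd1 medians of 0.08 and -0.24, and no marker of 6 for nerve or of 5 for flight muscle was tested. The yolk protein genes, read with the fat body list, had median Bre1 ratios of -1.03 and 0.65.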
